A study of Mus musculus with 2 samples.

Results

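The 80 antisense genes described here are those of GENCODE M21 gene type antisense that reached a TPM of at least 1 in the gene tables of both libraries. TPM is a level scaled for transcript length and for library size, so it can be compared between genes. The annotation holds 2959 antisense genes among 55536 genes, and the other 2879 fell short of the threshold in 1 or both tables, 2013 of them at 0 TPM in both. Since the 80 genes were chosen by their TPM in these gene tables, their levels are given as a description and carry no test. Total RNA was sequenced from gastrocnemius, a calf muscle made mostly of fast fibres, of male mice of the hybrid strain B6CASTF1/J at an age of 2 months, with 300 ng of RNA per library and ERCC spike-in RNA added. There was 1 group of 2 libraries, replicate 2 and replicate 1, and no treatment or genotype was compared. Each library has its own tissue sample in the labels but both share 1 donor entry, so the spread between them may be partly technical.

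An antisense transcript is read from the DNA strand opposite to that of another gene, so that the RNAs of the pair can be complementary wherever their exons meet. Some antisense RNAs act on the gene they overlap, by silencing it in cis, by interfering with its transcription or by pairing with its RNA, while many have no known role. Others are lncRNAs with functions elsewhere that the annotation calls antisense because of where they lie.

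With spike-ins, the gene tables held 42467674 expected counts in replicate 2 and 42925570 in replicate 1. Skeletal muscle markers such as Acta1, at 16647 TPM in replicate 2 and 18494 in replicate 1, were high, and the liver, brain and heart markers Alb, Apoa1, Snap25, Gfap, Nppa and Myl7 were at or near 0. The libraries differed in fibre markers. Summed over 13 slow-fibre markers, replicate 2 held 4344 TPM and replicate 1 held 1859 TPM. Summed over 14 fast-fibre markers, replicate 2 held 70439 TPM and replicate 1 held 89139 TPM.

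The 80 antisense genes together held 411 TPM in replicate 2 and 415 in replicate 1, or 0.0411% and 0.0415% of all TPM. They drew 12832 reads in replicate 2 and 13589 in replicate 1. Mean TPM over the libraries ran from 1.05 to 47.3 with a median of 2.01. It was under 2 in 39 genes, from 2 to 5 in 23, from 5 to 10 in 8 and at least 10 in 10. The 10 most abundant held 58.1% of the summed level in replicate 2 and 54.0% in replicate 1. The median member had 62.0 reads in replicate 2 and 65.5 in replicate 1, and the lowest had 15 and 13, so most values rest on few reads. For comparison, 9824 protein-coding genes and 117 lincRNA genes passed the same threshold.

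**Figure D1:**
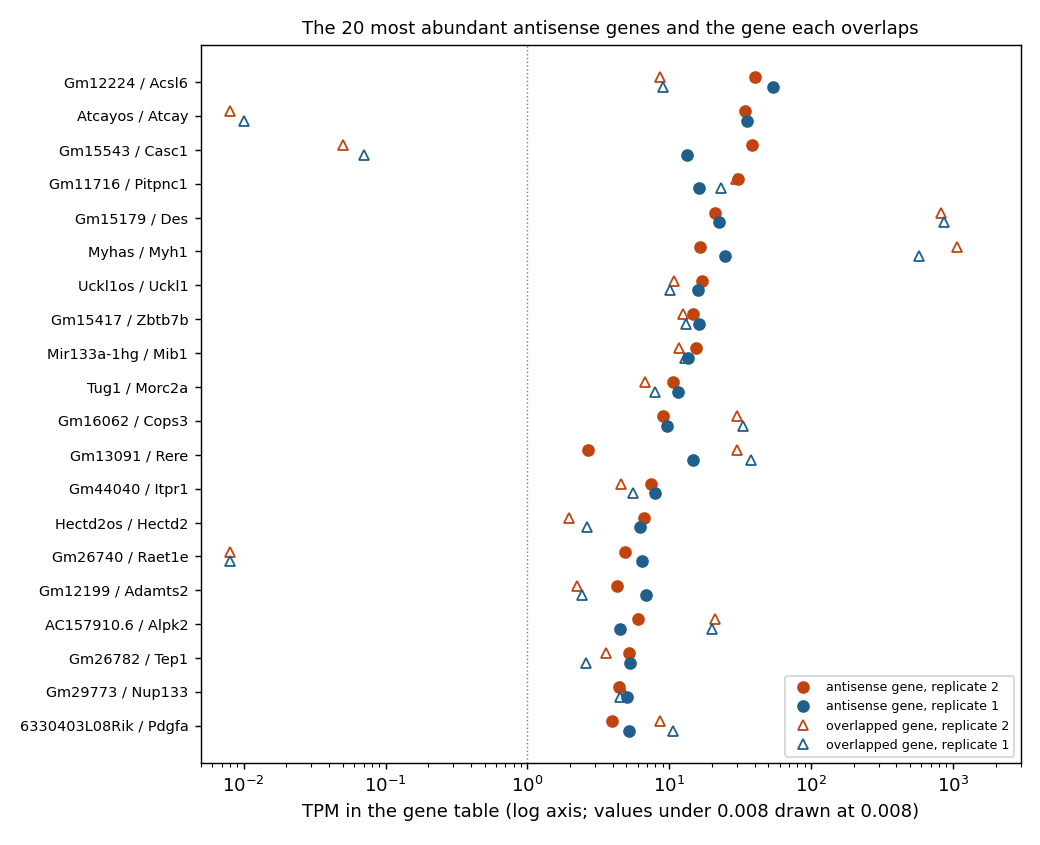
TPM (log axis) of the 20 most abundant antisense genes (filled circles) and of the gene each overlaps on the other strand (open triangles), in replicate 2 (red) and replicate 1 (blue). The dotted line marks 1 TPM. Antisense levels run from 2.67 to 54.4 TPM, while the overlapped genes run from 0 for Raet1e and, in replicate 2, Atcay to 1076 TPM for Myh1.

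Myhas and Gm15179 run against abundant muscle genes and lie far below them. Myhas (chr11:67211256-67237573 in mm10, minus strand), the antisense RNA of the fast myosin heavy chain cluster, stood at 16.5 TPM in replicate 2 and 24.8 in replicate 1. It runs against Myh1, the fast IIX myosin, with which it meets tail to tail over 515 shared exon bases, and Myh1 stood at 1076 TPM in replicate 2 and 575 in replicate 1. Thus Myhas was higher in replicate 1 and Myh1 in replicate 2. The leading transcript of Myhas begins 748 bases from the start of Myh4, the fast IIB myosin, which is read the other way and stood at 8431 TPM in replicate 2 and 11267 in replicate 1. The log2 TPM ratio of Myhas over Myh4 was -8.99 in replicate 2 and -8.82 in replicate 1.

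Gm15179 (chr1:75368212-75375012, minus strand) stood at 21.1 TPM in replicate 2 and 22.5 in replicate 1. It shares 220 exon bases, tail to tail, with Des, the muscle intermediate filament gene desmin, at 830 TPM in replicate 2 and 862 in replicate 1. Its other end lies beside a second muscle gene, since its start is 285 bases from that of Speg, a kinase of striated muscle, which had 108 TPM in replicate 2 and 122 in replicate 1. The Gm15179 level was 38.6-fold below that of Des and the Myhas level 38.7-fold below that of Myh1, as the mean over libraries of log2(TPM + 0.1).

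Atcayos was nearly equal in both libraries and far exceeded the gene it is named for. Atcayos (chr10:81194609-81210877, plus strand) stood at 34.4 TPM in replicate 2 and 35.3 in replicate 1, from 1965 and 1967 reads. Atcay, whose protein caytaxin is best known from brain, was at 0 TPM in replicate 2 and 0.01 in replicate 1. Atcayos also covers Nmrk2, a nicotinamide riboside kinase of muscle, and shares 270 exon bases with it. Nmrk2 stood at 21.7 TPM in replicate 2 and 28.5 in replicate 1, so that Atcayos was above both of its opposite-strand genes in both libraries.

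Gm15543 and Gm12224 also stood above the gene they lie in. Gm15543 (chr6:145182275-145187630, plus strand) had 38.1 TPM in replicate 2 and 13.3 in replicate 1, within Casc1 at 0.05 TPM in replicate 2 and 0.07 in replicate 1. It shares no exon base with Casc1. The most abundant member by mean, Gm12224 (chr11:54340369-54353479, minus strand), had 40.2 TPM in replicate 2 and 54.4 in replicate 1 (47.3 ± 10, SD, n = 2). It lies inside Acsl6, a long-chain acyl-CoA synthetase, at 8.60 TPM in replicate 2 and 9.07 in replicate 1. Gm12224 was 5.25-fold above Acsl6 as the mean over libraries, and the ranges of the pair did not overlap.

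Promoter windows are shown for 5 members with starts of their own beside or inside a gene of very different level. Each window spans 250 bases before to 50 bases after a RefSeq start (GRCm38.p6, the assembly also called mm10) and is printed 5′ to 3′ on the strand of the antisense gene. The RefSeq start lies within 8 bases of the annotated start of the leading transcript for the first 4 and 63 bases from it for Airn. Capitals mark 4 motifs, searched on both strands. The first is the TATA box, spelled TATAAA, and the second is the CCAAT box, named for its letters. The GC box was spelled GGGCGG, and the E box of muscle regulatory factors was spelled CAGCTG. A match on the other strand appears as its reverse complement. The windows are chr11:67237232-67237531 for Myhas, chr1:75374966-75375265 for Gm15179, chr10:81194441-81194740 for Atcayos, chr6:145182025-145182324 for Gm15543 and chr17:12741061-12741360 for Airn.
Myhas: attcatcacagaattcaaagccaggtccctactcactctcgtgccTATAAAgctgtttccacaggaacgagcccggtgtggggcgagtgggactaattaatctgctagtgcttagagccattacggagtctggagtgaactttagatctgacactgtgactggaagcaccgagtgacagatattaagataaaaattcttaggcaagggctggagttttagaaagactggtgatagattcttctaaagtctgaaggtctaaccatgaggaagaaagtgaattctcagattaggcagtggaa
Gm15179: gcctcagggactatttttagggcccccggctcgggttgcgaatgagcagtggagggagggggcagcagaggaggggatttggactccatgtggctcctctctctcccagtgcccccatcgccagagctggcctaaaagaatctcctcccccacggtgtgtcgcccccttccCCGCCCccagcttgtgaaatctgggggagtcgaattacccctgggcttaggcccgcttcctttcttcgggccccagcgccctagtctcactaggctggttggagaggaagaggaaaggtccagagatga
Atcayos: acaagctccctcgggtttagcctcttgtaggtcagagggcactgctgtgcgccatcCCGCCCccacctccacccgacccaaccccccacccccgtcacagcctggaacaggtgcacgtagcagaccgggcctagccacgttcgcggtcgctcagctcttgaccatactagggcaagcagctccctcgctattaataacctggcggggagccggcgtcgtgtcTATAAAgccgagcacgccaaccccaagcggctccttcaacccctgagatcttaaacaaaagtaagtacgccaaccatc
Gm15543: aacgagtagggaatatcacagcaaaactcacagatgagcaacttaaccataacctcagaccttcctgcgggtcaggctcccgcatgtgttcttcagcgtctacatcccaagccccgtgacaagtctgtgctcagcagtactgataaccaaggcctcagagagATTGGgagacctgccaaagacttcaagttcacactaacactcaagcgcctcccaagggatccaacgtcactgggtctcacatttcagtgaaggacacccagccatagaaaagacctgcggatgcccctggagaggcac
Airn: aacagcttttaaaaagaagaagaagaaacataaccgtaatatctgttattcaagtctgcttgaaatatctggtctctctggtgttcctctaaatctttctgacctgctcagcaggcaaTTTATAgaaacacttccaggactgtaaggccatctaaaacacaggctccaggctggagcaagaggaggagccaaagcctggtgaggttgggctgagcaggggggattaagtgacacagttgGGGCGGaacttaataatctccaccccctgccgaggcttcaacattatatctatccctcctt
The Myhas window held the TATA box letters and 6 CG dinucleotides, and the Atcayos window held the TATA and GC box letters and 20 CG dinucleotides. The Gm15179 window, near Speg, held the GC box letters and 11 CG dinucleotides. In Gm15543 there were the CCAAT letters and 8 CG dinucleotides, and in Airn the TATA and GC box letters and 3 CG dinucleotides. Over all 32851 windows of the RefSeq table, 13.6% held the TATA box letters, 37.4% the CCAAT letters, 35.7% the GC box and 16.3% the E box letters, with a median of 7 CG dinucleotides. A match is a run of letters and not a shown binding site.

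Of the 45 members with a RefSeq window, 5 held the TATA box letters (11.1%), 15 the CCAAT letters (33.3%), 20 the GC box (44.4%) and 5 the E box letters (11.1%). Their median was 10 CG dinucleotides. CG content went with the neighbourhood of the start. The 24 members with a protein-coding start on the other strand within 1000 bases had a median of 19.0 CG dinucleotides, against 5 in the 21 members with none. At least 10 CG dinucleotides were found in 18 of those 24 windows, against 5 of the other 21. A window near a coding start can also hold sequence of that coding gene. Those of Gm16062, Gm42067 and 1700008J07Rik overlap exons of Flcn, Dpf2 and Srcap. To which of the starts the CG content belongs was not tested. Only 28 of the 45 windows lie within 100 bases of the start of the leading transcript, and the farthest lies 55620 bases away. Of those 28, 4 held the TATA box letters (14.3%), 11 the CCAAT letters (39.3%), 12 the GC box (42.9%) and 3 the E box letters (10.7%), with a median of 10.5 CG dinucleotides. Among them the 17 with a nearby coding start had a median of 18.0, with 13 at 10 or more, and the 11 without one a median of 5, with 2 at 10 or more.

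Other members above 10 TPM lay close to the level of the gene they overlap. Uckl1os had 16.9 TPM in replicate 2 and 16.0 in replicate 1, against 10.8 and 10.2 TPM for Uckl1, a uridine-cytidine kinase-like gene. Gm15417 had 14.7 TPM in replicate 2 and 16.2 in replicate 1, against 12.6 and 13.1 TPM for Zbtb7b, a zinc-finger transcription factor. Both antisense genes exceeded the overlapped gene in each library, by 1.56-fold for Uckl1os and 1.20-fold for Gm15417 over the libraries. Gm11716 had 30.6 TPM in replicate 2 and 16.2 in replicate 1, against 29.7 and 23.3 TPM for Pitpnc1, a phosphatidylinositol transfer protein, and was thus above it in replicate 2 only.

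Mir133a-1hg, the host transcript of the muscle microRNAs Mir133a-1 and Mir1a-2, had 15.5 TPM in replicate 2 and 13.7 in replicate 1. It lies within Mib1, a ubiquitin ligase for Notch ligands, which stood at 11.7 TPM in replicate 2 and 12.9 in replicate 1. The second tables gave the other order, with 6.94 TPM in replicate 2 and 9.48 in replicate 1 for Mir133a-1hg against 17.5 and 20.1 TPM for Mib1. Both microRNA genes were listed at 0 TPM in each library, which does not show that the mature microRNAs were absent. No separate measurement of mature microRNAs was used here. Sox6os lies in an intron of Sox6, a transcription factor known to repress slow-fibre genes, and had 3.71 TPM in replicate 2 and 3.90 in replicate 1 against 63.9 and 74.0 TPM for Sox6. Sox6os was thus 17.6-fold below its host gene.

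Tug1, a widely expressed lncRNA, had 10.7 TPM in replicate 2 and 11.5 in replicate 1, and it meets Morc2a, a chromatin ATPase, head to head (6.71 and 7.94 TPM). Gt(ROSA)26Sor, the ROSA26 transcript whose locus is used to carry transgenes, had 2.72 TPM in replicate 2 and 2.62 in replicate 1. It begins 155 bases from Setd5, a SET-domain gene, at 9.14 TPM in replicate 2 and 11.5 in replicate 1. Tug1 was above the gene on its other strand and Gt(ROSA)26Sor below, in both libraries.

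Between 4 and 8 TPM, Gm44040 had 7.50 TPM in replicate 2 and 7.90 in replicate 1 within Itpr1, a calcium release channel gene, at 4.61 and 5.52 TPM. Hectd2os had 6.60 TPM in replicate 2 and 6.20 in replicate 1, tail to tail with the ubiquitin ligase gene Hectd2 at 1.97 and 2.65 TPM. Gm26782 had 5.21 TPM in replicate 2 and 5.31 in replicate 1, head to head with the telomerase-associated gene Tep1 at 3.58 and 2.58 TPM. All 3 exceeded the overlapped gene in both libraries. Gm29773, which begins 1522 bases from the skeletal actin gene Acta1, had 4.40 TPM in replicate 2 and 5.06 in replicate 1, on either side of the nuclear pore gene Nup133 at 4.61 and 4.53 TPM. Among members named for their neighbour, Zfp335os had 2.05 TPM in replicate 2 and 2.27 in replicate 1, Proscos 1.68 and 1.58 TPM, Foxo6os 1.61 and 1.37 TPM and Frmd8os 1.42 and 1.43 TPM.

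Airn (chr17:12741311-12860136, plus strand) is an imprinted RNA, read in mice from the paternal chromosome, that silences Igf2r in cis. It had 4.11 TPM in replicate 2 and 3.70 in replicate 1, against 15.0 and 14.4 TPM for Igf2r, a receptor for mannose 6-phosphate and IGF2. Airn was 3.71-fold below Igf2r over the libraries, and the alleles were not separated in the tables. Hoxd3os1 had 3.39 TPM in replicate 2 and 2.79 in replicate 1. On the other strand it overlaps Hoxd3, Hoxd4 and Hoxd8. Of these, Hoxd3 had 0 TPM in replicate 2 and 0.05 in replicate 1. Hoxd8, the most abundant of them, had 17.3 and 15.4 TPM.

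Airn and Hoxd3os1 were the only members among 25 genes listed as well described antisense or opposite-strand RNAs. Kcnq1ot1, the imprinted antisense RNA of Kcnq1, missed the threshold at 0.610 TPM in replicate 2 and 0.710 in replicate 1. Its reads, 1949 in replicate 2 and 2252 in replicate 1, were close to or above the 1965 and 1967 of Atcayos, the most counted member, and its single exon covers 93092 bases. Kcnq1 itself had 0.170 TPM in replicate 2 and 0.130 in replicate 1. Nespas, Tsix, Dlx6os1, Hoxb5os, Wt1os, Pax6os1, Uchl1os and Hnf1aos1 had 0 reads in the gene tables of both libraries. The second tables gave Dlx6os1, Wt1os and Uchl1os values above 0 in 1 or both libraries, none over 0.0507 TPM. In the gene tables Mhrt, which runs against the slow myosin Myh7, had 1 read in replicate 2 and 0 in replicate 1. Myh7 stood at 529 TPM in replicate 2 and 204 in replicate 1. A count of 0 allows up to 3 reads. Hotairm1, Hoxb3os and Emx2os stayed under 0.5 TPM in both libraries.

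Across the set, 77 of the 80 genes overlapped a protein-coding gene on the other strand, and Gm13375, Gm43079 and Foxo6os overlapped none. For the 16 members that overlap several opposite-strand genes, the protein-coding gene with the longest overlap was used. The log2 ratio of antisense TPM over that of the overlapped gene, with 0.1 added to each, had a median of -1.26 in replicate 2 and -1.13 in replicate 1. Over the libraries the median was -1.19, or 2.29-fold below, with quartiles at -3.55 and 0.63. It ran from -6.91 for D830024N08Rik in Tecr, a fatty-acid elongation enzyme, to 8.38 for Atcayos over Atcay.

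In both libraries 26 members stood above the overlapped gene and 45 below it, and 6 changed sides. Of the overlapped genes, 15 were under 1 TPM in both libraries, while 34 had at least 10 TPM in both. Among the members above a near-silent gene were Gm26740, with 4.91 TPM in replicate 2 and 6.43 in replicate 1 against 0 TPM for Raet1e in both, and Plet1os, with 1.86 and 1.35 TPM against 0.02 and 0.0400 TPM for Plet1. Tmem147os covers Gapdhs, the sperm form of glyceraldehyde-3-phosphate dehydrogenase, which had 0 TPM in both libraries. At the other end, 21 members had under 10% of the level of the overlapped gene in both libraries. H3f3aos had 1.32 TPM in replicate 2 and 1.43 in replicate 1 against 123 TPM in each for the histone gene H3f3a, and Rab10os had 2.37 and 4.52 TPM against 109 and 118 TPM for the small GTPase gene Rab10.

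**Figure D2:**
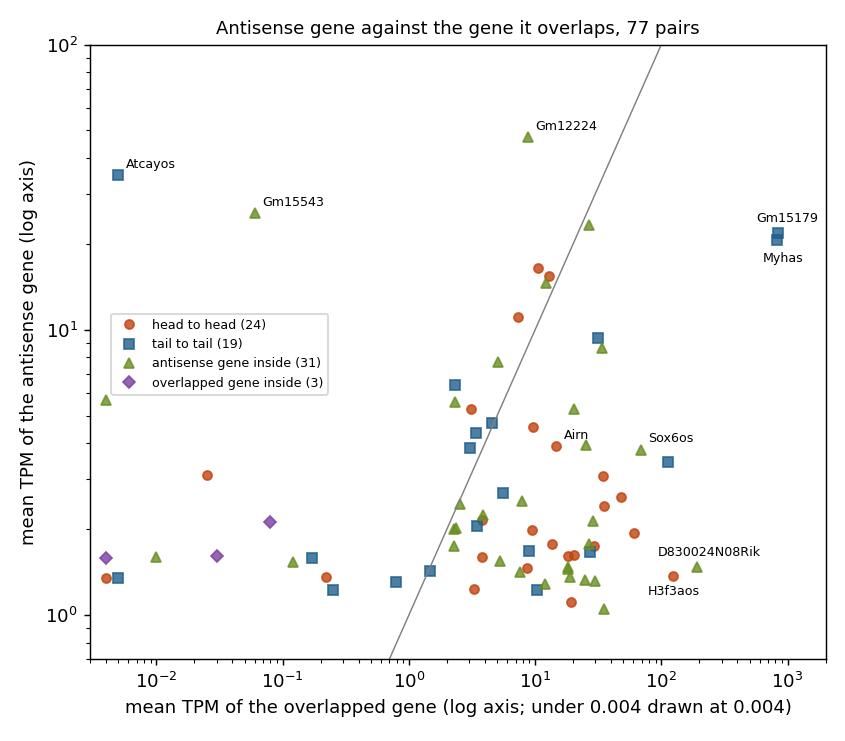
Mean TPM over the 2 libraries of each antisense gene (vertical, log axis) against that of the gene it overlaps (horizontal, log axis), with symbols for the arrangement of the pair. The grey line marks equal levels. Atcayos and Gm15543 lie far above the line, and Myhas and Gm15179 are abundant but lie below far more abundant genes.

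The choice among several overlapped genes mattered for 7 members, for which the longest overlap was not with the most abundant gene. Sp3os overlaps Gm11084, at 0 TPM, most widely, but it also overlaps the transcription factor gene Sp3, at 7.55 TPM in replicate 2 and 8.13 in replicate 1. Sp3os itself had 1.47 TPM in replicate 2 and 1.23 in replicate 1. With the most abundant gene in place of the longest overlap, 22 members exceeded the opposite gene in both libraries, and the median log2 ratio was -1.74.

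By arrangement, 31 members lay inside the overlapped gene, 24 met it head to head, 19 met it tail to tail and 3 contained it. In shares, 38.8% of the members lay inside the overlapped gene, against 55.1% of the 2879 other antisense genes. Head-to-head pairs made up 30.0% of the members, against 20.5% of the others, and tail-to-tail pairs 23.8%, against 14%. The overlapped gene had a mean TPM of at least 1 for 77.5% of the members, against 50.4% of the others. The median ratio was -0.05 for the tail-to-tail members, compared with -2.05 for head-to-head members and -1.74 for those inside. The tail-to-tail ratios were widely spread, from -5.27 for Gm15179 and Myhas to 8.38 for Atcayos. Their median also depends on which overlapped gene is used. The ratio of 1810021B22Rik was 3.79 over Panx2, but -2.93 in replicate 2 and -3.04 in replicate 1 over Trabd, which it also overlaps. Exon bases were shared with the overlapped gene by 52 members (median 286, from 3 to 2617 bases), and 25 overlapped only its introns. Among those 25, Sp3os shares 109 exon bases with Sp3 and 1810021B22Rik 88 with Trabd, which they also overlap.

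A start within 1000 bases of a protein-coding start on the other strand was found for 36 members (45.0%), against 29.8% of the other antisense genes. For 23 members (28.7%, against 13.4%) that coding start lay upstream, so that the transcripts diverge. Within 200 bases there were 19 members (23.8%, against 12.5%). These shares come from the annotation and describe the 80 genes with no test.

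The closest pair was 6230400D17Rik and Chchd1, a mitochondrial ribosome gene, whose starts lie 6 bases apart. The antisense gene had 1.51 TPM in replicate 2 and 1.82 in replicate 1, against 46.9 and 47.1 TPM for Chchd1. Tmem147os begins 39 bases from Tmem147, an endoplasmic reticulum membrane gene, and had 1.42 TPM in replicate 2 and 1.74 in replicate 1, against 98.3 and 91.1 TPM. In both pairs the antisense gene was far below its neighbour in each library. 6330403L08Rik, 19 bases from the growth factor gene Pdgfa, came closer to it, with 3.95 TPM in replicate 2 and 5.20 in replicate 1 against 8.57 and 10.7 TPM. Gm16062, 64 bases from the folliculin gene Flcn, had 9.05 TPM in replicate 2 and 9.70 in replicate 1 against 15.8 and 20.1 TPM. Junos begins 729 bases from Jun, an AP-1 transcription factor gene, and had 1.61 TPM in replicate 2 and 1.60 in replicate 1 against 20.4 and 16.1 TPM. Jun was higher in replicate 2 (log2 ratio 0.39, adjusted p 8.36e-16 in the exact binomial test between libraries). Junos, with 32 reads in replicate 2 and 31 in replicate 1, had a log2 ratio of 0.09 with a 95% interval from -0.66 to 0.86, which includes that of Jun.

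**Figure D3:**
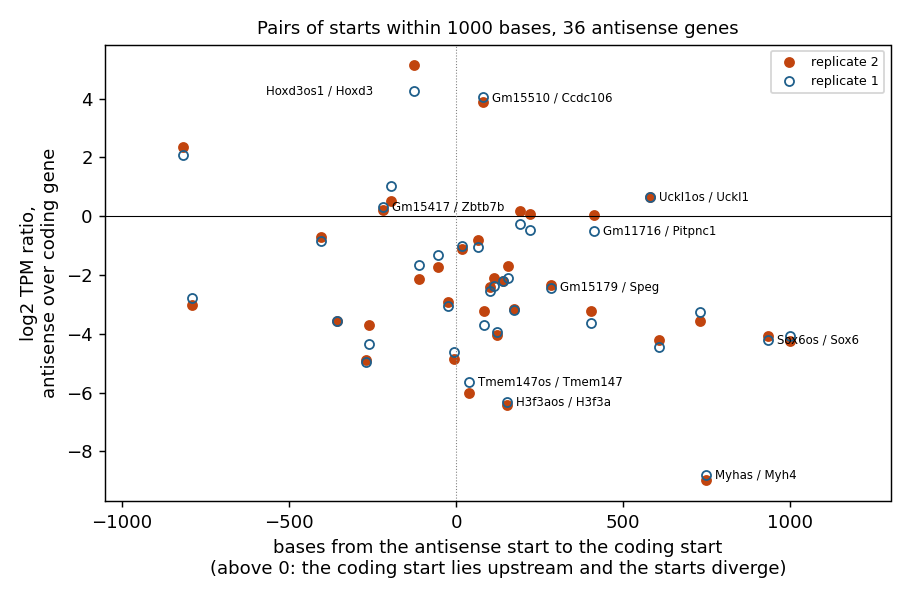
Log2 TPM ratio of antisense over coding gene (vertical) against the distance in bases between their starts (horizontal), for the 36 members within 1000 bases of a coding start, in replicate 2 (filled) and replicate 1 (open). Most pairs lie below 0. Myhas over Myh4 is lowest, at -8.99 in replicate 2 and -8.82 in replicate 1, and Hoxd3os1 over Hoxd3 is highest.

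Most members were annotated with few exons. Exons covered 361 to 9734 bases, with a median of 1121, against 917 in the other antisense genes. The leading transcript had 1 exon in 14 members, 2 exons in 43 and 3 or more in 23. One annotated transcript was present in 38 members. Of the 42 with several, 27 had 1 transcript holding at least 50% of the gene's level in both libraries. Gm12224 had 95.49% of its level in a transcript of 567 bases and 4 exons in replicate 2 and 93.8% in replicate 1, and Myhas had 86.14% and 90.36% in a transcript of 883 bases and 2 exons.

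In Rab10os and AC157910.6 the libraries differed by different factors in reads and in TPM, and the mix of transcripts differed too. In Rab10os a transcript of 746 bases held 0% of the level in replicate 2 and 29.45% in replicate 1, with 200 reads and 2.37 TPM in replicate 2 and 268 reads and 4.52 TPM in replicate 1. For AC157910.6, inside the kinase gene Alpk2, reads were 62 in replicate 2 and 25 in replicate 1 while TPM was 6.07 and 4.49. A transcript of 201 bases held 66.62% of its level in replicate 2 and 89.75% in replicate 1.

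No source used here says whether reads were counted by strand, and without strand the reads of a gene and its antisense partner cannot be told apart. The following measurements bear on this. Of 13 antisense genes with at least 50% of their exon bases inside exons of a gene at a mean of 50 TPM or more, 0 reached a mean of 1 TPM in the gene tables. The highest of them had 0.265% of the partner's level, and the partners had a median of 197 TPM. With partners at a mean of 10 TPM or more, 5 of 84 such genes reached 1 TPM, and the highest had 11.8% of the partner's level. Among the members, 8 shared at least 50% of their exon bases with the overlapped gene (Gm28610, Gm45051, 9130221H12Rik, Gm20457, Proscos, 1110002L01Rik, Gm48420 and Frmd8os). The posterior standard deviation of the count, described below, was 0 in both libraries for all of these except 1110002L01Rik. In 1110002L01Rik it was 0.286% of the count in replicate 1 and 0 in replicate 2. Whether reads were counted by strand was not itself tested.

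Few counts were marked as ambiguous between genes. The posterior standard deviation of the count, deposited by the authors, was 0 in both libraries for 73 members. It was highest in Gm43079, at 15.0% of the count in replicate 2 and 19.9% in replicate 1. In Myhas it was 0.0807% in replicate 2 and 0.0313% in replicate 1. The 25 members that overlap only introns share no exon base with the overlapped gene. For them neither this value nor the measurements by shared exon bases above can show reads mixed with that gene. A gene on the same strand overlaps 14 members, among them Airn, Tug1, Mir133a-1hg and Gm43079, whose same-strand gene is Acad9.

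The libraries were compared gene by gene with an exact two-sided binomial test on rounded expected counts, scaled by TMM factors. All 14827 genes with 20 or more reads over both libraries were tested, with Benjamini-Hochberg adjustment across them. It compares these 2 libraries by counting error and has no replicate check. All 80 members were tested and 11 passed an adjusted p of 0.05 (13.8%), against 25.8% of all genes tested and 14.9% of the genes with similar counts. Of the 80 members, 3 were called higher in replicate 2, against 14.3% of all genes tested, and 8 higher in replicate 1, against 11.5%. Of the 5781 genes with similar counts, 481 were called higher in replicate 2 and 380 higher in replicate 1. A fold of at least 2 was reached as well by 4 members, or 5%. That share was 3.08% for all genes tested and 4.17% for those with similar counts, near that of the members. Of the 4, 2 were higher in replicate 2, against 1.82% of all genes tested, and 2 in replicate 1, against 1.25%. Of the 5781 genes with similar counts, 139 were higher in replicate 2 and 102 in replicate 1 by this rule. The median log2 ratio of replicate 2 over replicate 1 was -0.02 for the members and 0.00 for all genes tested, with SDs of 0.50 and 0.52.

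Gm15543, Gm11716 and AC157910.6 were the members higher in replicate 2. Gm15543 had 343 reads in replicate 2 and 120 in replicate 1, a log2 ratio of 1.56 (95% interval 1.26 to 1.88, adjusted p 3.88e-26 in the exact test). For Gm11716 there were 390 reads in replicate 2 and 206 in replicate 1, a log2 ratio of 0.97 (0.72 to 1.22, adjusted p 3.14e-14, exact test). Pitpnc1, in which it lies, moved the same way by 0.39 (adjusted p 9.08e-21). The ratio of AC157910.6 was 1.34 (0.67 to 2.09, adjusted p 0.000342, exact test), from far fewer reads.

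Gm13091, inside the corepressor gene Rere, differed most. It had 34 reads in replicate 2 and 186 in replicate 1, or 2.67 and 14.6 TPM, a log2 ratio of -2.39 (95% interval -2.98 to -1.87, adjusted p 4.99e-24, exact test). Rere had a log2 ratio of -0.21 (adjusted p 1.23e-13), with 30.1 TPM in replicate 2 and 37.5 in replicate 1. Gm13091 therefore differed 5.23-fold between the libraries while its host gene differed far less. 2310040G07Rik, in the purine synthesis gene Ppat, had 18 reads in replicate 2 and 47 in replicate 1 (log2 ratio -1.31, adjusted p 0.00401, exact test).

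The other 6 members higher in replicate 1 differed by under 2-fold. Myhas had a log2 ratio of -0.54 (95% interval -0.72 to -0.37, adjusted p 9.14e-09, exact test), Gm12224 of -0.39 (adjusted p 1.10e-06) and 6330403L08Rik of -0.35 (adjusted p 8.56e-06). Beside Myhas, the ratio of Myh4 was -0.37 and that of Myh1 0.95, both past the threshold. Gm12199, E130307A14Rik and Rab10os had ratios of -0.62, -0.44 and -0.37 with adjusted p of 0.0349, 0.0416 and 0.0269. All 3 lost the call when libraries were scaled by spike-in totals, and Gm12199 and E130307A14Rik also lost it in the second tables and when no filter on counts was used.

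The fibre markers moved between the same libraries. Of the 13 slow-fibre markers 13 were higher in replicate 2, of the 14 fast-fibre markers 12 were higher in replicate 1 and 2 higher in replicate 2, and all 25 genes of a mitochondrial energy list were higher in replicate 2. In bulk tissue, fewer cells of a type and less RNA per cell cannot be told apart. Of 5 general skeletal muscle markers, 3 were called higher in replicate 1 and 0 higher in replicate 2 (summed level 32386 TPM in replicate 2 and 38127 in replicate 1). Markers of other cells moved too. All 4 endothelial markers were called higher in replicate 2 (summed level 40.6 TPM in replicate 2 and 36.5 in replicate 1). Of 4 fibroblast markers, 1 was called higher in replicate 2 and 3 higher in replicate 1 (summed level 183 TPM and 182 TPM). Of 3 macrophage markers, 1 was called higher in replicate 1 (summed level 5.26 TPM and 7.97 TPM). The part of fibre type or of other cell types in the differences of the antisense genes was not tested.

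Of the 69 members that did not pass, 49 had a 95% interval that stayed within 2-fold, and 20 had an interval that reached 2-fold. Among the first were Atcayos (log2 ratio 0.05, interval -0.04 to 0.14), Tug1 (-0.03, -0.13 to 0.08), Uckl1os (0.16, 0.02 to 0.30), Gm15179 (-0.06, -0.26 to 0.14) and Airn (0.07, -0.30 to 0.45). For Sp3os, with 25 reads in replicate 2 and 21 in replicate 1, the interval ran from -0.60 to 1.21. Counts therefore set how small a difference could be seen.

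Of 10 called members whose overlapped gene was tested, 4 had that gene called the same way, 1 the other way (Myhas and Myh1) and 5 had it not called. Of all 63 overlapped genes tested, 27 were called (42.9%), 7 of them higher in replicate 2 and 20 higher in replicate 1, so 5 of 10 is near that share and nothing is read from the tally. Nmrk2, which Atcayos covers, had a log2 ratio of -0.34 (adjusted p 1.14e-09, exact test), and the interval of Atcayos ran from -0.04 to 0.14. The difference between these ratios was not itself tested.

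**Figure D4:**
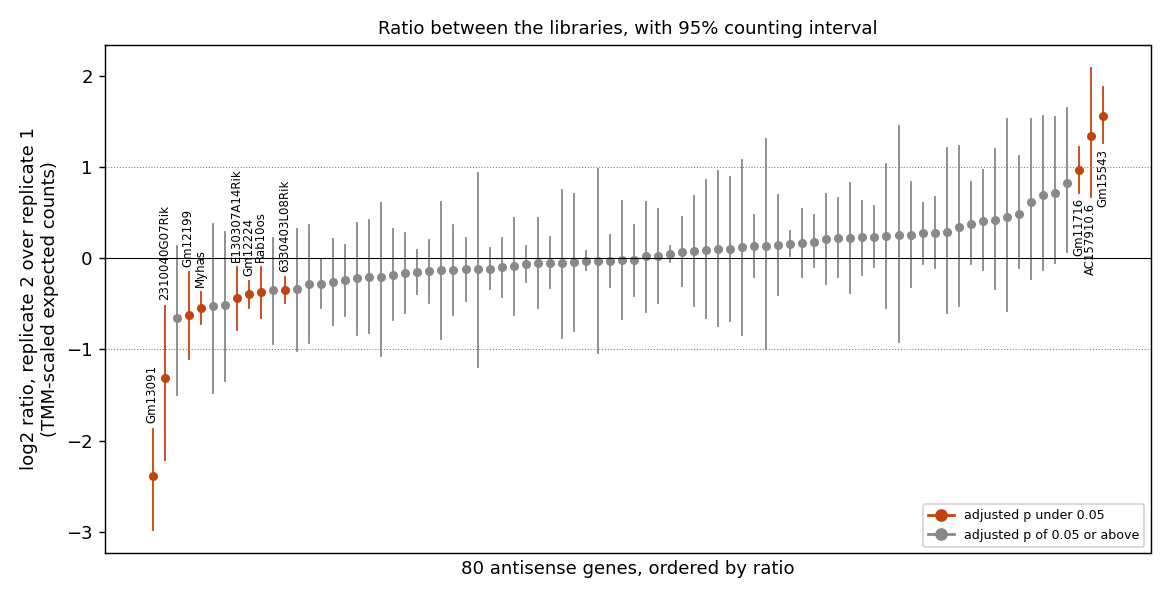
Log2 ratio of replicate 2 over replicate 1 for the 80 antisense genes, ordered by ratio, with 95% counting intervals. The 11 genes in red passed an adjusted p of 0.05. Dotted lines mark a 2-fold difference, which Gm13091 and 2310040G07Rik pass downward and Gm15543 and AC157910.6 upward.

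The same libraries were also quantified in second transcript tables of another kind, here summed to genes, which list all 199 member transcripts as antisense. In these, 74 of the 80 members had at least 1 TPM in both libraries. The median log2 ratio of second over first TPM was 0.65 in each library for the members. Over all genes at 1 TPM or more in both gene tables it was 0.49 in replicate 2 and 0.56 in replicate 1. The level was higher in the second tables in both libraries for 68 members and lower in both for 6.

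Those 6 were 2900060B14Rik, Gm20400, Gm15543, Gm20457, Mir133a-1hg and AC157910.6. 2900060B14Rik and Gm20400 were listed at 0 in the second tables of both libraries, against 1.35 and 1.90 TPM in the gene table of replicate 2 and 1.61 and 1.18 TPM in that of replicate 1. Gm15543 had 10.5 TPM in the second table and 38.1 TPM in the first for replicate 2, and 1.58 TPM against 13.3 TPM for replicate 1. Mir133a-1hg had 6.94 TPM in the second table and 15.5 TPM in the first for replicate 2, and 9.48 TPM against 13.7 TPM for replicate 1. The ranks of these genes among the members therefore depend on the kind of table.

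The difference between libraries held its direction for the members most apart. In the second tables Gm15543 had a log2 ratio of 2.69 (adjusted p 0.000146, exact test), Gm11716 of 1.03 (6.96e-08), Gm13091 of -2.55 (1.21e-26) and Myhas of -0.51 (1.19e-06). Gm13091 itself was among the genes raised most, with 7.11 TPM in the second table and 2.67 TPM in the first for replicate 2, and 46.3 TPM against 14.6 TPM for replicate 1. Both kinds of table describe the same libraries, so they are not independent.

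**Figure D5:**
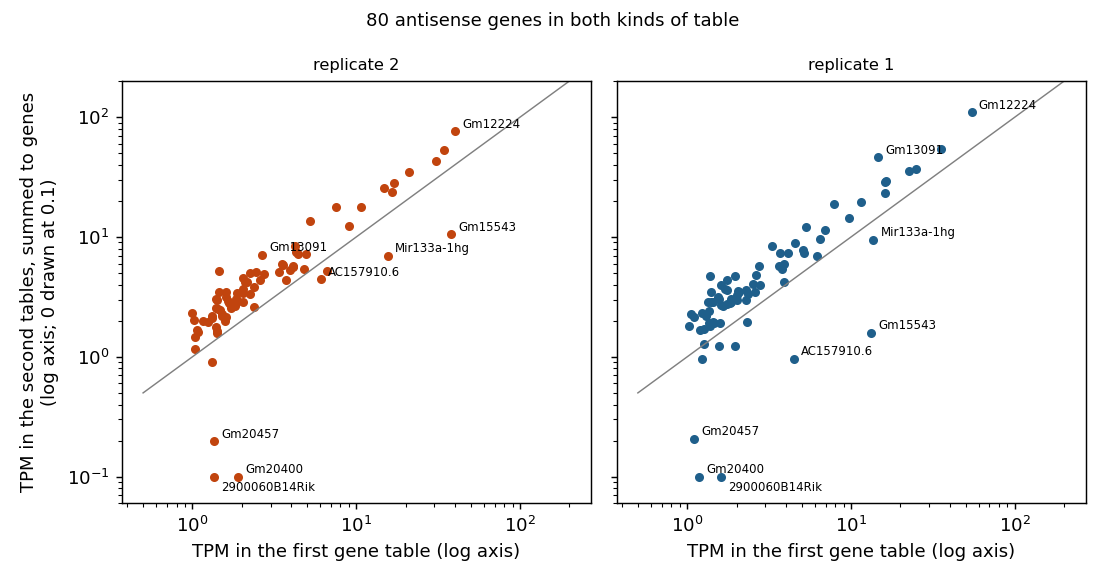
TPM in the second tables, summed to genes (vertical, log axis), against TPM in the first gene tables (horizontal, log axis) for the 80 antisense genes, in replicate 2 (left) and replicate 1 (right). The grey line marks equal values and 0 is drawn at 0.1. Most genes lie above the line, while Gm15543, Mir133a-1hg, AC157910.6, Gm20457, Gm20400 and 2900060B14Rik lie below it.

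At the threshold itself, the 3 genes just inside were Gm47898, with 1.00 TPM in replicate 2 and 1.10 in replicate 1, Gm15879 with 1.02 and 1.69 TPM, and Gm3235 with 1.61 and 1.03 TPM. Just outside were Gm15756, with 0.970 and 1.53 TPM, AC165962.1 with 0.970 and 1.04 TPM, and Zbtb11os1 with 0.95 and 1.02 TPM. In all, 27 antisense genes reached 1 TPM in 1 library alone.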

How the data were processed

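Total RNA-seq of 2 gastrocnemius libraries was analysed. Per the file headers, the gene and transcript tables deposited by the authors hold expected counts, TPM, the percent of a gene's level held by each transcript, and, read as scores, a posterior mean and SD per count. A second kind of deposited transcript table holds estimated counts and TPM and was summed to genes. Assembly (mm10) and annotation (GENCODE M21) are as the deposited sample notes give them. No source used here names the aligner, the counter, their versions or the use of strand, and strand-specific signal tracks were not used here.

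Gene types, coordinates, exons and overlaps were taken from the GENCODE M21 annotation, which matched all 55536 gene identifiers. The 96 ERCC RNAs entered only the spike-in scaling. The other 26249 rows that name no annotated gene drew 3 reads in replicate 2 and 6 in replicate 1, and they were left out. The leading transcript is the one with the most TPM. Expected counts were rounded, scaled by TMM (edgeR 4.0.16, R 4.3.3), and compared by an exact conditional binomial test (SciPy 1.17.1 in Python 3.11.15), with 0.5 added to each count in ratios. With 1 group no edgeR quasi-likelihood test between groups could be made. Intervals are exact Clopper-Pearson intervals at 95% and, like the limit of 3 reads, cover counting error only. The test was first run on simulated counts that held counting error only, which is the error it assumes. This could not check it against any other spread between libraries. DESeq2 1.42.0 size factors and spike-in totals were alternative scalings. Promoter windows are from RefSeq.

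The members, lists, tests and naming rule were chosen with earlier results of these data known. Named genes are the 20 members highest in mean TPM, the called members with the largest ratios, the extremes of the ratio over the overlapped gene and of second over first tables, the genes beside the threshold, members with descriptive symbols and a list of 25 described antisense RNAs. Other members are named as examples, after their values were seen.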

Additional observations from a re-analysis of the deposited data

How the results depend on the processing

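The number of antisense genes that pass the threshold was 80, and became 135 at 0.5 TPM, 38 at 2 TPM and 127 in the second tables. It was 93 by posterior mean TPM and 73 with at least 20 reads in each library. With 1 library left out it ran from 90 to 97, and it could not fall, since the rule then asks for 1 library only. The median log2 ratio of antisense over overlapped gene (-1.19) was -1.34 in the second tables, -0.94 with 1 added to TPM, -1.74 with the most abundant overlapped gene and -1.05 over the members that share exon bases, and ran from -1.26 to -1.13 with 1 library left out. The count above the overlapped gene (26) was 23 in the second tables and 22 with the most abundant overlapped gene. With 1 library left out it ran from 27 to 31, and it could not fall, since the rule then asks for 1 library only. The 11 calls between libraries became 4 with a fold of at least 2. They were 8 with a summed count of at least 200, where 50 of the 80 members were not tested, and 9 to 11 under the other settings. The members' median ratio between libraries stayed between -0.06 and 0.07.

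Of the 80 members' ratios, some that were not called changed sign. Gm20522 did so with DESeq2 size factors (-0.00). Under spike-in scaling it turned for Frmd8os (0.02), Gm11967 (0.01), Gm16062 (0.00), Gm26782 (0.02), Gm44040 (0.03), Sox6os (0.03) and Tug1 (0.02). In the second tables, where 7 members were not tested, it turned for Airn (-0.07), Gm11266 (0.06), Gm15179 (0.05), Gm15635 (-0.02), Gm28609 (1.20), Gm29773 (0.01), Gm42067 (-0.15), Gm44040 (0.08), Gm47898 (0.26), Mir133a-1hg (-0.33), Sox6os (0.17), Tug1 (0.00) and Zfp335os (0.12). Uckl1os passed the threshold only under spike-in scaling (0.21). The cause was not tested. No paired analysis was possible because there is 1 group. Of the 69 members not called, the interval reached 2-fold in 20 and stayed within it in 49.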

Other observations

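Of the 25 genes listed as described antisense or opposite-strand RNAs, 10 carry another gene type and so lie outside the 80 genes. Among them Zfas1, a snoRNA host, had 7.43 TPM in replicate 2 and 9.46 in replicate 1, Peg13, an imprinted RNA, had 5.16 and 5.50 TPM, Hoxa11os had 1.93 and 2.10 TPM and Snhg14, the long RNA that runs over Ube3a, had 1.77 and 1.33 TPM. Hotair had 0.240 TPM in replicate 2 and 0.320 in replicate 1. At the same threshold, the first 4 would have passed had the rule not asked for the antisense gene type.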
